A study of Homo sapiens with 21 samples.

Results

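The TRIB1 locus was 1 of 53 loci in a series of Tri-C experiments that followed a B cell leukemia line as it was converted into macrophages, and it was chosen by name, as all count files of that locus: 7 of 371, covering 4 libraries captured at an enhancer and 3 captured at a CTCF-binding site (CBS) at the edge of its domain. TRIB1 is a pseudokinase, a protein with a kinase fold that has lost most catalytic function and acts as a scaffold. It brings the ubiquitin ligase COP1 to C/EBPα, which marks this myeloid transcription factor for degradation, and in mice its loss reduces certain tissue macrophages. C/EBPα is also the factor whose activation drives the conversion studied here. Contacts between an enhancer and a promoter are thought to be shaped by CTCF, which halts the loop-extruding cohesin complex at its binding sites, so that sequences between such sites meet each other more often than sequences outside.

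In Tri-C, chromatin is cut with NlaIII and religated, and reads that hold a captured viewpoint and at least 2 further fragments (reporters) are kept, so that each count is a three-way contact: the viewpoint and a pair of reporters on the same molecule. The enhancer viewpoint lies in an intron of NSMCE2, which encodes a SUMO ligase, in the gap between reporters at chr8:125219342-125221291 (hg38). TRIB1 starts at chr8:125430358 on the plus strand (ENSG00000173334.4, ending at 125438403), 210.0 kb downstream of the enhancer. The CBS viewpoint, chr8:125643587-125645677, lies between protein-coding genes, 214.3 kb downstream of the TRIB1 start, and is called the boundary site here. A further CTCF site, 311.4 kb upstream of the start and inside NSMCE2, is called the upstream site. The stretch between both sites is called the domain. It holds TRIB1 as its only protein-coding start.

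BLaER1 is a human leukemia line of B cell origin with an inducible CEBPA transgene, and it turns macrophage-like (iMac) once 17β-estradiol, IL-3 and CSF-1 are added. From the enhancer, libraries were made 96 h after induction in a CTCF-AID subclone given auxin (IAA) from the start of induction, and in BLaER cells before induction (0 h), after 24 h and after 96 h. From the boundary site, libraries were made in BLaER cells at the same 3 times. The 96 h library that the depleted cells were set against was labelled as the plain line and not as the AID subclone, so the subclone, auxin and CTCF loss cannot be told apart. Each of the 7 groups had 3 biological replicates, 21 samples in all, that the authors had pooled into 1 set of counts. No difference below therefore has a replicate check. Intervals (95%) and tests compare pooled libraries and cover counting error only. A molecule with several reporters gives several counts, while the tests take each count as independent. Where counts of the same molecule or fragment pair are not independent, intervals are too narrow and p-values too small. The assay holds no expression, so the state of the cells was not checked against markers.

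Depth from the enhancer was high among the loci. From the enhancer, 87362 counts at 0 h, 99384 at 24 h and 79113 at 96 h had both reporters within 1 Mb of the viewpoint, ranking 2, 1 and 2 among 51 loci, and 99160 in CTCF-depleted cells ranked 3. From the boundary site there were 46115, 59534 and 59613 counts at 0, 24 and 96 h, ranking 18, 13 and 8. The values below are window counts as a percentage of these totals. A window spans 12 kb around an element. It takes only distant counts, in which the viewpoint and both reporters all lay over 10 kb apart. The depleted library stood apart from the other 3 enhancer libraries. Its distant counts were 22.1% of the total, against 34.8% in 96 h cells (31.9% at 0 h and 33.6% at 24 h), each fragment pair was counted 2.84 times on average, against 1.88 times, and 37.5% of its counts were in fragment pairs seen 10 or more times, against 22.1%. All 51 loci (100%) had a lower distant share in depleted cells, and the part this has in the depletion results was not tested. Values relative to distant counts alone are therefore given beside the main ones.

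The first comparison asks whether the enhancer meets the TRIB1 promoter more often as cells convert. Counts with a reporter in the promoter window made up 0.622% of the total at 0 h (543 counts), 0.817% at 24 h (812) and 1.36% at 96 h (1074). The level was higher at each later time, and the 3 exact intervals did not overlap (0.571 to 0.676%, 0.762 to 0.875% and 1.28 to 1.44%). The odds ratio was 1.32 at 24 h over 0 h (1.18 to 1.47; adjusted exact p = 1.07e-06), 1.67 at 96 h over 24 h (1.52 to 1.83; 1.34e-27) and 2.20 at 96 h over 0 h (1.98 to 2.44; 3.85e-53), with exact binomial tests adjusted over the 51 loci. In each of the 3 comparisons most loci also rose (52.9%, 60.8% and 68.6%), so a call alone does not set TRIB1 apart.

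The contact profile from the enhancer had 2 phases. At 24 h against 0 h, the promoter was the only one of 13 elements inside the domain that rose, beside 7.32% of regular 12-kb windows there, and 0 of 13 fell in the exact test, beside 0.61% of all windows. The other elements that rose at 24 h lay at or outside the edge. The boundary site had 0.960% at 24 h and 0.711% at 0 h, and a CTCF site with enhancer marks 268.6 kb downstream of TRIB1 had 0.882% and 0.596%. A CTCF site inside MTSS1, 837.4 kb upstream, had 0.306% and 0.224%. Neighbouring windows moved with them: 6 windows in a row, from 208.0 to 280.0 kb downstream of TRIB1, were higher at 24 h. Over the whole profile 11.6% of windows were. The 8 enhancer elements had log2 odds ratios between -0.15 and -0.00 in this comparison. Of them, 0 passed the exact binomial test after adjustment, and 1, lower at 24 h, had an unadjusted p under 0.05.

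**Figure D1:**
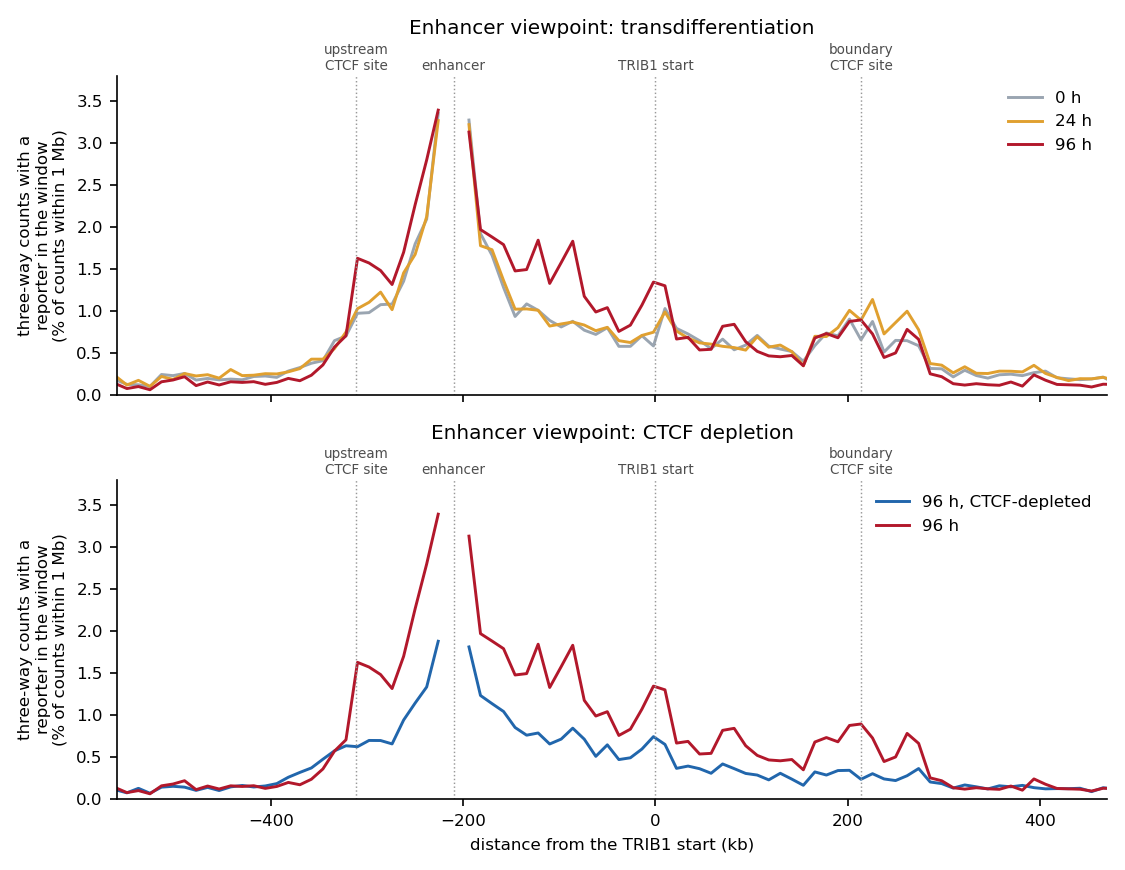
Three-way counts from the enhancer with a reporter in each 12-kb window (vertical axis, % of counts within 1 Mb) by the window's distance from the TRIB1 start (kb); each line is 1 pooled library and the gap is the viewpoint. The top panel shows 0, 24 and 96 h, with the 96 h line highest in most windows from the upstream site to the promoter; the bottom panel shows CTCF-depleted 96 h and 96 h cells, with the depleted line lower in all windows between both CTCF sites.

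Between 24 and 96 h the gains moved inside. In this interval 11 of 13 elements in the domain rose, beside 63.4% of all windows there, while 51.8% of all 164 windows within 1 Mb fell. By 96 h against 0 h, 10 of 13 elements in the domain had risen and none had fallen, beside 61.0% and 12.2% of windows there (18.3% and 43.3% of all windows). The elements came from contact calls the study had made in other libraries of the same conversion, so their direction is not independent evidence. Their share of calls was also close to that of the windows around them. The rise thus covered a stretch and not the elements alone: 16 windows in a row, from 176.0 kb upstream to 16.0 kb downstream of the TRIB1 start, were higher at 96 h than at 0 h, and 7 in a row from 316.0 to 232.0 kb upstream.

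Within that stretch, as seen from the enhancer viewpoint, the enhancers nearest to it on the TRIB1 side changed late. The enhancer 88.4 kb upstream of the TRIB1 start had 0.818% at 0 h, 0.783% at 24 h and 1.75% at 96 h (715, 778 and 1382 counts). The enhancer 119.4 kb upstream had 0.948%, 0.879% and 1.70%. Neither passed at 24 h over 0 h, where the promoter did, and both rose later, with log2 odds ratios at 96 h over 24 h of 1.17 (adjusted exact p = 1.2e-74) and 0.96 (6.5e-53). The difference in timing from the promoter was not tested. In the boundary-site libraries both were already higher at 24 h, at 0.601% and 0.499%, than at 0 h, at 0.421% and 0.384%. From the enhancer viewpoint, their ratios at 96 h over 0 h, 1.11 and 0.85, stand beside 1.14 for the promoter. Adjustment here is over all windows of the locus. The enhancers on the far side of the viewpoint, 242.4 and 266.4 kb upstream of TRIB1, changed less, by 0.44 and 0.31.

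Downstream of TRIB1, 2 of 5 elements in the domain passed at 96 h over 0 h. The enhancer 36.6 kb downstream had 0.746% at 0 h, 0.705% at 24 h and 0.683% at 96 h, with a log2 odds ratio of -0.13 at 96 h over 0 h that did not pass. Those 12.6, 68.6 and 180.6 kb downstream had 0.18, 0.18 and 0.08, of which only the nearest passed (adjusted exact p = 0.022). The exception was the element 80.6 kb downstream, a CTCF site with enhancer marks, with 0.546%, 0.562% and 0.910%. It rose by 0.74 on the log2 scale (adjusted exact p = 1.5e-17). All 7 elements between the upstream site and TRIB1 rose, by 0.31 to 1.11, against 2 of the 5 between TRIB1 and the boundary site. Regular windows differed between the sides as well. Both runs of higher windows, of 16 and 7, lay upstream of TRIB1 or ended 16.0 kb downstream of its start. Further downstream inside the domain, 3 windows in a row were lower (median log2 value -0.32). The contrast between the sides is thus not read as particular to the elements.

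**Figure D2:**
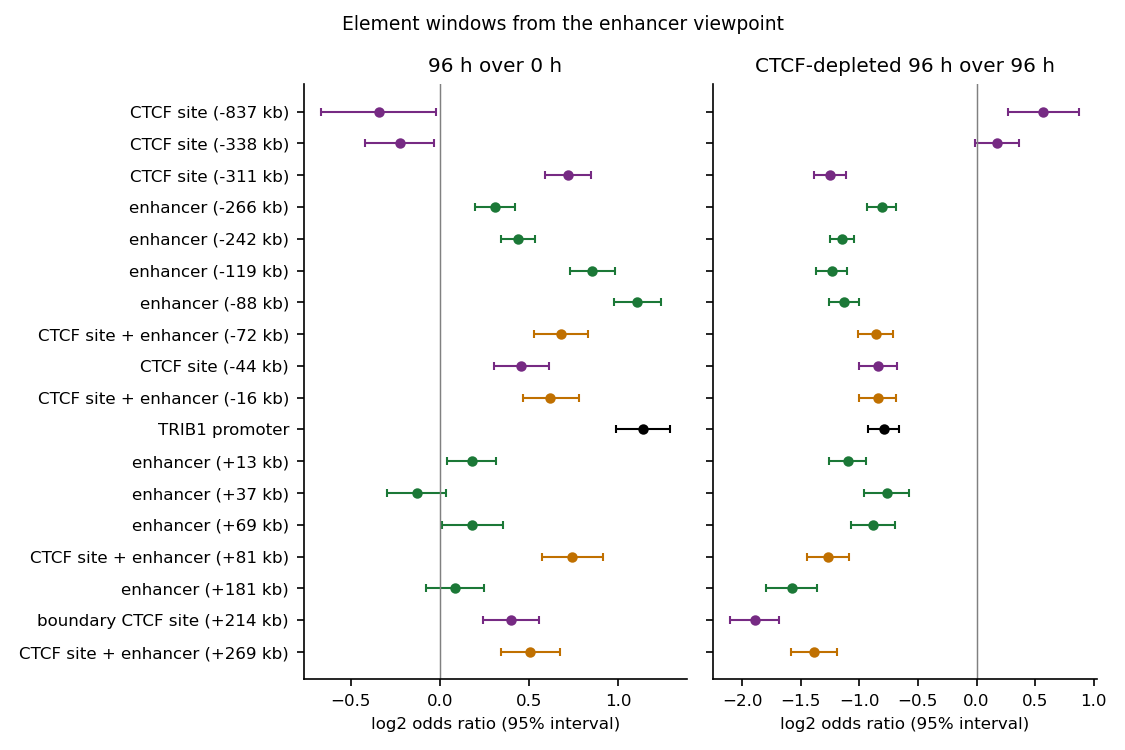
Log2 odds ratio with its 95% interval (horizontal axis) for the 18 element windows seen from the enhancer, ordered by distance from the TRIB1 start, at 96 h over 0 h (left) and in CTCF-depleted 96 h over 96 h cells (right); colors mark the promoter (black), enhancers (green), CTCF sites (purple) and elements of both kinds (orange). The promoter has the highest value on the left, 1.14, and the boundary site the lowest on the right, -1.89.

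The CTCF sites at the edges passed at different steps. The upstream site had 0.949% at 0 h, 1.02% at 24 h and 1.55% at 96 h, a late rise of 0.61 on the log2 scale at 96 h over 24 h (adjusted exact p = 4.0e-22). The boundary site had 0.711%, 0.960% and 0.935%. It rose early (0.44 at 24 h over 0 h; adjusted exact p = 1.39e-08 over the loci), and 96 h and 24 h cells differed by -0.04 (-0.18 to 0.10; adjusted exact p = 0.66), although with windows of 6 and 20 kb the fall passed. Of the loci, 45.1% rose at this site at 24 h over 0 h. A CTCF site 338.4 kb upstream, just outside the upstream site and in the window of the NSMCE2 and WASHC5 starts, had 0.595%, 0.515% and 0.509% and was lower at 96 h than at 0 h (-0.23; adjusted exact p = 0.032).

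Reporters past the boundary site also rose first and fell later. Of the distant reporters downstream of the enhancer, leaving out the boundary window, 24.6% lay beyond the boundary site at 0 h, 27.5% at 24 h and 16.0% at 96 h. The odds ratio was 1.16 at 24 h over 0 h (1.13 to 1.19), 0.50 at 96 h over 24 h (0.49 to 0.52) and 0.58 at 96 h over 0 h (0.56 to 0.60), all past the exact test. Both reporters of a count entered this test as separate trials, so its intervals are likely too narrow. Of the 51 loci, 41.2% rose at 24 h over 0 h, 72.5% fell at 96 h over 24 h and 70.6% fell at 96 h over 0 h. TRIB1 ranked second of 36 iMac loci for the early rise, where 20 of the 36 fell. Upstream the fall was seen as well: reporters beyond the upstream site were 16.7% of all distant reporters at 0 h, 17.2% at 24 h and 12.1% at 96 h, while those inside the domain were 65.4%, 62.8% and 74.2%.

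The 10 other protein-coding starts within 1 Mb lie outside the domain or at its upstream edge. At 96 h against 0 h, 3 rose (2 of them in 1 shared window) and 3 fell, beside 18.3% and 43.3% of all windows. These counts do not set the starts apart from other windows. The start of RNF139, an endoplasmic reticulum ubiquitin ligase, had 31 counts at 0 h, 86 at 24 h and 55 at 96 h and was highest at 24 h (log2 1.27 over 0 h; adjusted exact p = 1.6e-04). The shared window of TATDN1 and NDUFB9, a subunit of mitochondrial complex I, had 111, 152 and 137 counts and passed only at 96 h over 0 h (0.45; exact test, 0.027). SQLE, the squalene epoxidase of cholesterol synthesis, had 140, 226 and 119 counts, higher at 24 h than at 0 h (0.50) and lower at 96 h than at 24 h (-0.59). ZNF572 had 124, 158 and 78, lower at 96 h than at 0 h (-0.52), as was TMEM65 with 49, 40 and 20 (-1.13). WASHC5, a subunit of the endosomal WASH complex, had 533, 518 and 420 and just missed the test at 96 h over 0 h (-0.20; 0.051). NSMCE2, which shares nearly all of its window with WASHC5 and with the CTCF site 338.4 kb upstream, had 520, 512 and 403 and passed (-0.23; exact test, 0.032).

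Three-way counts also show which elements were held together with the enhancer on 1 molecule. Of 90 element pairs with enough counts (20 over both libraries), 37 were higher at 96 h than at 0 h and 1 was lower, beside 21.3% and 2.87% of regular window pairs. With each fragment pair counted once, 21 of 71 were higher, beside 12.7% of window pairs, and 0 of 71 lower in the exact binomial test (1 at an unadjusted p under 0.05). These window pairs lie anywhere within 1 Mb, while 13 of the 18 elements lie in the domain. Single windows there rose in 61.0%, against 18.3% of all windows. The higher share of element pairs is therefore not read as particular to the elements. The enhancers 242.4 and 88.4 kb upstream of TRIB1, on opposite sides of the viewpoint, were seen together in 23 counts at 0 h, 12 at 24 h and 82 at 96 h, a log2 odds ratio of 1.96 at 96 h over 0 h (1.30 to 2.71; adjusted exact p = 7.6e-08). The enhancer 242.4 kb upstream and the TRIB1 promoter were together in 13, 22 and 60 counts, with 2.31 (1.47 to 3.34; 2.9e-07). Each of these counts joins the viewpoint and both other elements. The promoter and the enhancer 88.4 kb upstream had 11, 6 and 39 counts (log2 1.92, adjusted exact p = 2.7e-04). Single windows rose too, so pair counts were also set over the product of their window counts, divided by the number of distant reporters. At 0 h and 96 h this ratio was 1.05 and 1.57 for the first pair and 0.78 and 1.48 for the second. For the last pair it was 1.58 and 1.45, so that pair did not rise beyond its windows. Changes in the ratio were not tested.

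Pairs of the promoter and the CTCF sites were fewer and rose as well. The upstream and boundary sites were together with the enhancer in 17 counts at 0 h, 30 at 24 h and 48 at 96 h (1.61 at 96 h over 0 h, 0.82 to 2.53; adjusted exact p = 4.4e-04). The upstream site and the promoter had 6, 16 and 29 counts (2.33; 4.0e-04). The promoter and the boundary site had 8, 21 and 30 counts, an odds ratio of 3.96 at 96 h over 0 h (1.86 to 10.5; adjusted exact p = 3.49e-04 over the loci measured, of which 53.3% rose). The steps of that last triple, 24 h over 0 h and 96 h over 24 h, did not pass on their own (adjusted exact p = 0.089 and 0.087). At these counts the intervals of the triples are wide.

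**Figure D3:**
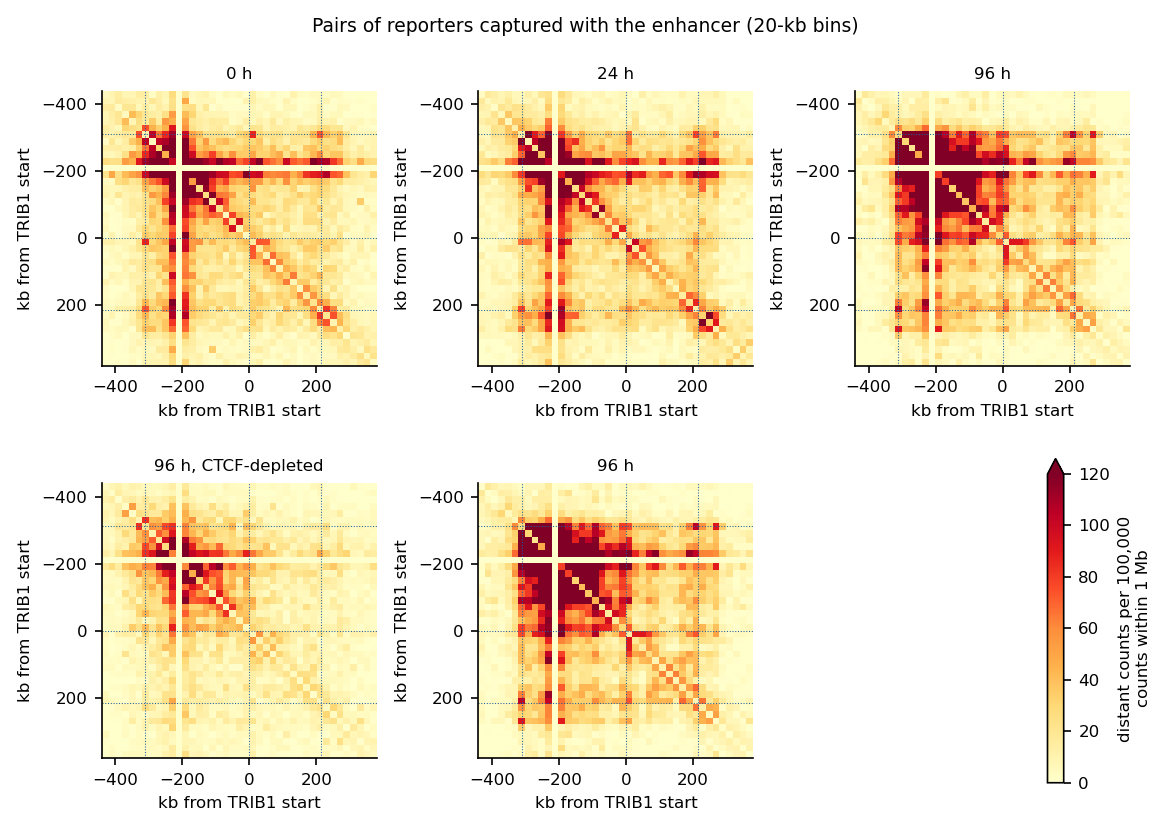
Counts of reporter pairs captured with the enhancer, in 20-kb bins along both axes (kb from the TRIB1 start; color, distant counts per 100000 counts within 1 Mb, with the scale capped), for 0, 24 and 96 h (top) and for CTCF-depleted 96 h and 96 h cells (bottom). Dotted lines mark the upstream site, the TRIB1 start and the boundary site, and the blank cross is the viewpoint; the dense block between the upstream site and TRIB1 is darkest at 96 h and paler in depleted cells.

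The single pair that fell, the upstream site with the enhancer 12.6 kb downstream of TRIB1 (47 counts at 0 h, 19 at 24 h and 20 at 96 h), rested on repeated counts. Its 47 counts came from 12 fragment pairs, against 20 fragment pairs at 96 h, and with each fragment pair counted once the log2 value was 0.81 in place of -1.07. It is not read as a fall.

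The remaining reporter of promoter contacts can be placed as well. Of the 543 promoter counts at 0 h, 812 at 24 h and 1074 at 96 h, 15.3%, 8.74% and 6.98% had their other reporter upstream of the domain. The share between the upstream site and the enhancer was 14.4%, 17.7% and 21.5%. The 95% intervals at 0 h and 96 h did not overlap for either share.

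The CTCF-depleted library asks how far this arrangement rests on CTCF. Lower levels filled the domain: 48 windows in a row, from 316.0 kb upstream to 280.0 kb downstream of the TRIB1 start, were lower in depleted than in 96 h cells, by 0.57 to 1.93 on the log2 scale (median -0.99). Of all 164 windows, 25.6% were higher, with 0 of the 41 inside the domain. Among the higher ones were 4 in a row just beyond the upstream edge (388.0 to 340.0 kb upstream, median 0.53). On distant counts 37 of the 48 windows were still lower (median -0.34), and those 4 were higher still (median 1.19), while 67.1% of all windows were higher and 22.6% lower. On the total all 41 windows inside the domain fell (100%; 73.2% on distant counts), so the 16 of 18 elements that fell do not stand apart from the windows around them (31.1% of all windows fell). The 1 element that rose was the CTCF site inside MTSS1, with 0.262% in depleted cells and 0.177% in 96 h cells. The lower stretch ran past the boundary site to the element 268.6 kb downstream, which had 0.326% in depleted cells and 0.846% in 96 h cells.

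The boundary site had the widest fall among the elements. It had 252 counts (0.254%) in depleted cells and 740 (0.935%) in 96 h cells, an odds ratio of 0.27 (0.23 to 0.31; adjusted exact p = 3.93e-83, where 92.2% of the loci fell), below the 621 counts (0.711%) of 0 h cells. The upstream site had 653 counts (0.659%) in depleted cells and 1227 (1.55%) in 96 h cells, a log2 value of -1.25 (adjusted exact p = 2.5e-74). Relative to distant counts alone, the falls at these sites were smaller and still past the test, -1.25 at the boundary site (2.3e-34) and -0.61 at the upstream site (1.4e-17). Just outside, the CTCF site in the window of the NSMCE2 start had 0.575% in depleted and 0.509% in 96 h cells, which did not pass the exact test on the total (0.17; 0.10) and was 0.84 higher on distant counts (1.9e-18).

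The TRIB1 promoter was lower in depleted cells, by less than the median of the domain's run of windows. It had 782 counts (0.789%) in depleted cells and 1074 (1.36%) in 96 h cells, an odds ratio of 0.58 (0.53 to 0.63; adjusted exact p = 1.43e-31). On distant counts alone the log2 value was -0.14, with an adjusted exact p of 0.058 over the loci and 0.049 over the windows of the locus, and with each fragment pair counted once it was -0.34. The promoter held 3.56% of distant counts in depleted cells and 3.90% in 96 h cells (1.95% at 0 h and 2.43% at 24 h). Of the 51 loci, 92.2% had a lower promoter level in depleted cells on the total, and 64.7% on distant counts.

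All 8 enhancer elements fell on the total, as did all 41 windows inside the domain (100%), so this does not set them apart. The enhancer 88.4 kb upstream had 0.804% in depleted cells and 1.75% in 96 h cells (-1.13), and the one 119.4 kb upstream 0.728% and 1.70% (-1.24). On distant counts they fell by 0.49 and 0.59 on the log2 scale, both past the exact test. The enhancer 180.6 kb downstream of TRIB1, the nearest to the boundary site, had 0.259% and 0.770%, and fell by 1.58 on the total and 0.93 on distant counts. The enhancer 36.6 kb downstream, 0.402% and 0.683%, fell by 0.77 on the total and by 0.11 on distant counts, where it did not pass the exact test (0.26). Element by element, 15 of 18 were lower and 2 higher on distant counts. Beside them, 22.6% of all windows were lower and 67.1% higher, and 73.2% of those inside the domain were lower.

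Triples with the boundary site were few in depleted cells. The upstream and boundary sites were together with the enhancer in 5 counts in depleted cells and 48 in 96 h cells, a log2 odds ratio of -3.47 (-5.28 to -2.27; adjusted exact p = 7.2e-10), and the promoter and the boundary site in 7 and 30 (odds ratio 0.20, 0.07 to 0.43; 1.74e-05 over the loci measured, of which 70% fell). Among called pairs with 50 or more counts, the widest fall was in a pair with no called CTCF site, the enhancer 242.4 kb upstream with the promoter, with 3 counts in depleted and 60 in 96 h cells (-4.44, -6.97 to -3.03; 3.0e-15). The promoter with the enhancer 88.4 kb upstream had 27 counts in depleted cells against 39 in 96 h cells (-0.85; exact test, 0.034). The upstream site with the promoter had 19 and 29 counts and did not pass the exact test (-0.92; 0.051). On distant counts the first 3 of these pairs were still lower, at -2.82, -1.70 and -3.79, all past the exact test, while the promoter with the enhancer 88.4 kb upstream no longer passed (-0.20; 0.78). In all, 43 of 77 element pairs were lower in depleted cells and 0 of 77 higher in the exact binomial test (0 also at an unadjusted p under 0.05), beside 54.1% and 1.98% of regular window pairs. The count of lower pairs was 22 of 77 on distant counts, beside 20.9% of window pairs, and 16 of 57 with each fragment pair counted once, beside 18.1%.

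Reporters beyond the boundary site made up 24.2% of those downstream of the enhancer in depleted cells and 16.0% in 96 h cells (boundary window left out), an odds ratio of 1.68 (1.62 to 1.74), and 96.1% of the loci rose. The share in 0 h cells was 24.6%. Such a share also rises when reporters inside the domain fall. Relative to all reporters within 1 Mb, the stretch 400 to 500 kb downstream of the enhancer held less in depleted cells. It includes the boundary site and had 1.16%, against 2.69% in 96 h and 2.72% in 0 h cells. The stretch 500 to 1000 kb downstream had 2.37%, against 1.87% and 3.13%. Upstream of the domain, the share of all distant reporters was 22.3% in depleted cells and 12.1% in 96 h cells. The shares beyond the boundary site and upstream of the domain are within distant reporters and do not move with the distant total. Of the other starts, TMEM65 rose, with 71 counts in depleted and 20 in 96 h cells (1.48; adjusted exact p = 2.9e-05), and 0 of the other 9 passed on the total in the exact test (0 also at an unadjusted p under 0.05). Of all 164 windows, 25.6% were higher and 31.1% lower on the total. On distant counts 9 of the 10 starts were higher, beside 67.1% of all windows. They were higher by 0.56 at MTSS1, an actin-binding protein, to 2.13 at TMEM65, with 0.84 at NSMCE2. RNF139, at 0.48, did not pass the exact test (0.083).

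The boundary-site libraries give the view from the other end of the domain. Among the elements, the highest level was not at the promoter but at the upstream CTCF site, at the opposite edge of the domain, with 1.81% at 0 h (834 counts), 2.30% at 24 h (1371) and 2.69% at 96 h (1603). It rose in both steps, by 0.36 and 0.23 on the log2 scale (adjusted exact p = 3.5e-07 and 1.0e-04), where 16.5% and 15.9% of all windows rose. The CTCF site just outside it had 0.583%, 0.618% and 0.512%. Contact between the edges of the domain was thus measured before induction and was higher at 96 h.

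**Figure D4:**
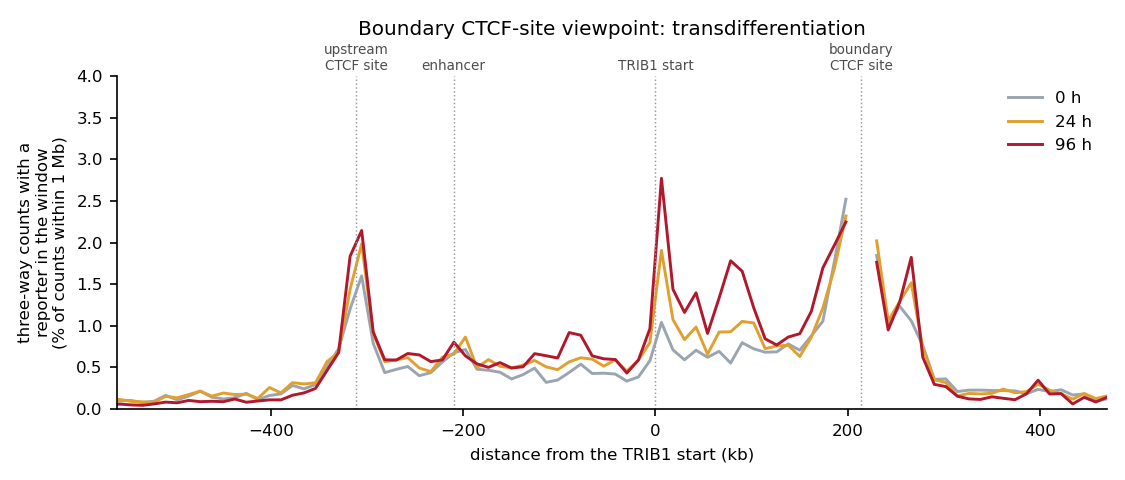
Three-way counts from the boundary CTCF site with a reporter in each 12-kb window (vertical axis, % of counts within 1 Mb) by distance from the TRIB1 start (kb), at 0, 24 and 96 h, 1 line per pooled library, with a gap at the viewpoint. Peaks stand at the upstream site and just downstream of the TRIB1 start, where the level is higher at each later time.

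Contact of TRIB1 with the boundary site rose at both steps. Its promoter window had 0.885% at 0 h (408 counts), 1.42% at 24 h (843) and 1.75% at 96 h (1046), odds ratios of 1.61 at 24 h over 0 h (1.43 to 1.82; adjusted exact p = 3.45e-14), 1.24 at 96 h over 24 h (1.13 to 1.36; 8.4e-06) and 2.00 at 96 h over 0 h (1.78 to 2.25; 4.42e-34). On the log2 scale the steps were 0.69 and then 0.31 from the boundary site, beside 0.40 and then 0.74 from the enhancer; the difference between viewpoints was not tested. Of 48 loci measured, 41.7%, 56.2% and 68.8% rose in the 3 comparisons. In bins of 2 kb, the bin centered 4 kb downstream of the start, inside TRIB1, had 143, 309 and 390 counts and that at the start itself 19, 46 and 67.

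Seen from the boundary site, the elements just downstream of TRIB1 had the largest changes. The enhancer 12.6 kb downstream had 0.794% at 0 h, 1.52% at 24 h and 2.30% at 96 h (1.56 at 96 h over 0 h; adjusted exact p = 1.0e-87), and the CTCF and enhancer element 80.6 kb downstream 0.609%, 0.947% and 1.75% (1.54; 9.6e-66). The enhancer 36.6 kb downstream, which did not pass from the enhancer viewpoint, had 0.696%, 0.947% and 1.47% (1.08). On the total, all 5 elements between TRIB1 and the boundary site rose by 0.47 to 1.56, and all 8 between the upstream site and TRIB1 by 0.25 to 1.17. Again the stretch moved as a whole: 83.3% of windows in the domain were higher (25.0% of all windows), 24 of them in a row from 167.7 kb upstream to 120.3 kb downstream of the TRIB1 start. The distant share of these libraries rose too, from 25.2% at 0 h to 28.5% at 24 h and 30.6% at 96 h. Among distant counts alone, some elements hardly changed. The enhancer 266.4 kb upstream had 2.04% at 0 h and 2.05% at 96 h, and the enhancer viewpoint 2.71% and 2.66%. The enhancer 88.4 kb upstream had 1.67% and 3.10%, and the one 12.6 kb downstream 3.15% and 7.54%.

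The enhancer viewpoint had the smallest change at 96 h over 0 h among the 14 elements of the domain. It had 0.683% at 0 h (315 counts), 0.662% at 24 h (394) and 0.814% at 96 h (485). The odds ratio was 0.97 at 24 h over 0 h (0.83 to 1.13; adjusted exact p = 0.77) and 1.19 at 96 h over 0 h (1.03 to 1.38; 0.024), where 56.9% of the loci rose. This call was lost under 4 of 6 alternatives, among them distant counts alone, where the log2 value was -0.03 (adjusted exact p = 0.83). Captured from the enhancer, the same pair of sites had an odds ratio of 1.35 at 24 h over 0 h (1.22 to 1.5), and the 2 intervals do not overlap. With windows of 20 kb, however, the value from the boundary site turned to 0.19 on the log2 scale and passed (adjusted exact p = 0.042), a rise from both viewpoints. Each viewpoint captures its own set of three-way contacts. The triple of enhancer and promoter had 3 counts at 0 h, 9 at 24 h and 23 at 96 h (odds ratio 5.20 at 96 h over 0 h, 1.79 to 30.9; adjusted exact p = 1.63e-03, where 48.1% of 27 loci rose).

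Pairs seen from the boundary site rose around TRIB1. The enhancer 12.6 kb and the CTCF and enhancer element 80.6 kb downstream of TRIB1 were together with it in 3 counts at 0 h, 34 at 24 h and 73 at 96 h, a log2 odds ratio of 4.02 at 96 h over 0 h (2.63 to 6.55; adjusted exact p = 9.0e-13). The promoter with the enhancer 180.6 kb downstream had 7, 23 and 50 counts (2.38; exact test, 1.8e-05). The upstream site with the element 80.6 kb downstream had 5, 27 and 46 counts (log2 2.71, adjusted exact p = 9.9e-06). Set over the product of their window counts, divided by the number of distant reporters, these pairs were at 0.68, 0.66 and 0.50 at 0 h. At 96 h they were at 1.85, 1.62 and 1.00, so the last was then no more frequent than its windows give. Changes in this ratio were not tested. Of 51 pairs, 32 rose and 0 fell at 96 h over 0 h in the exact binomial test (0 also at an unadjusted p under 0.05), beside 27.3% and 1.21% of regular window pairs. Those window pairs lie anywhere within 1 Mb. Single windows rose in 83.3% of the domain and 25.0% of the whole profile, so the shares are not matched for place. The promoter with the upstream site did not pass, with 33, 49 and 59 counts (0.46, -0.17 to 1.13; exact test, 0.26).

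**Figure D5:**
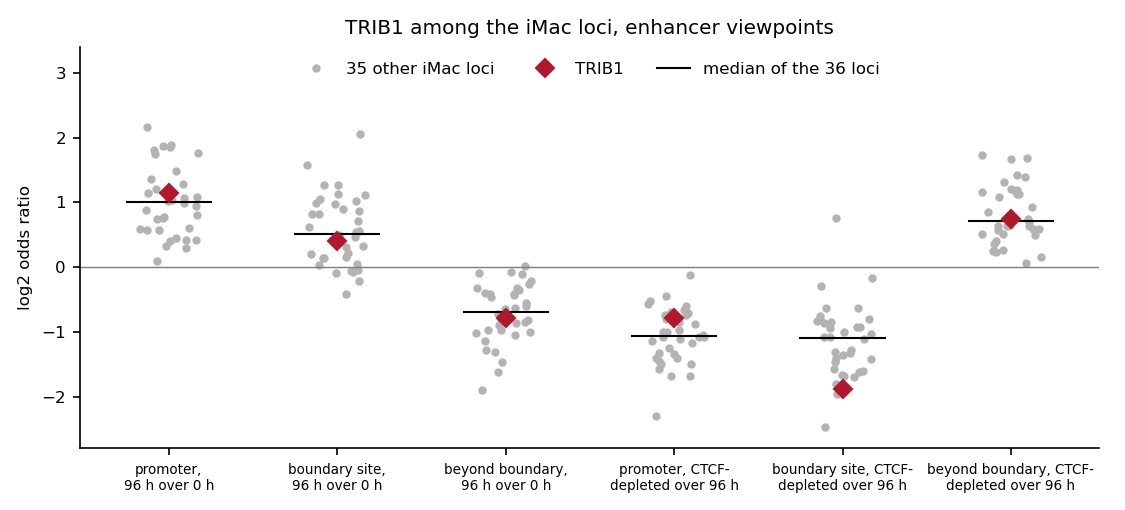
Log2 odds ratios (vertical axis) of 6 quantities from the enhancer viewpoints for TRIB1 (diamond) and the 35 other iMac loci (points, spread sideways for display), with the median of all 36 as a line. TRIB1 lies near the median for the promoter and for reporters beyond the boundary, and near the low end for the boundary site in CTCF-depleted over 96 h cells.

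Among the 36 loci of genes that are active in iMacs, the promoter of TRIB1 changed by about the median amount. Its log2 odds ratio at 96 h over 0 h, 1.14, ranked 13 of 36 beside a median of 1.00 and a range of 0.09 to 2.17. CCR1, a chemokine receptor locus, had 2.17, NFKBIZ, which encodes a nuclear inhibitor of NF-κB, 1.13, and CEBPA 0.60. The triple of enhancer, promoter and boundary site ranked 3 of 21 loci measured (1.99, median 1.30), after CCR1 at 3.08 and NFKBIZ at 2.46. In depleted over 96 h cells, the promoter ranked 11 of 36 from the highest (-0.79, median -1.07), with -2.30 at CCR1, -0.97 at NFKBIZ and -0.57 at CEBPA. The boundary site ranked 34 of 36 (-1.89, median -1.10), with -2.47 at CCR1 and -1.81 at NFKBIZ. On distant counts TRIB1 ranked 8 of 36 for the promoter (-0.14, median -0.46) and 34 of 36 for the boundary site (-1.25, median -0.57).

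The loci most like TRIB1, by the root mean square difference over 10 log2 changes, were EPS8 (0.35), TNFSF10 (0.38) and SRGN (0.39), beside a median of 0.63 over the 47 loci compared. EPS8 is an actin regulator, TNFSF10 encodes the death ligand TRAIL and SRGN a granule proteoglycan. All 3 had a higher promoter level at 96 h than at 0 h from both viewpoints. On the total their boundary-site level was lower in depleted than in 96 h cells, by -1.42, -1.31 and -1.57. These changes were among the 10 that picked the loci, so the shared directions are not independent evidence. They are also common in iMac loci. The promoter was higher at 96 h in 35 of 36 from the enhancer and in 22 of 33 from the boundary site. The boundary site was lower in depleted cells in 34 of 36. The 3 loci differed from TRIB1 in the boundary site at 96 h over 0 h. It was 1.13 at EPS8, 0.53 at TNFSF10 and 1.05 at SRGN, against 0.40 at TRIB1.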

How the data were processed

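Per the labels and the study's methods, the authors merged 3 biological replicates per group (21 samples, 7 groups), mapped reads to hg38 with CapCruncher in capture mode, and counted every pair of reporter fragments in cis on reads holding the viewpoint. The deposited values are these raw counts per fragment pair. Viewpoints were read as the gap between reporters and annotated with GENCODE release 44.

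The total of a library was its counts whose 2 reporters lay no further than 1 Mb from the viewpoint. Windows of 12 kb were compared between 2 pooled libraries by a two-sided exact conditional binomial test, with log2 odds ratios (pseudocount 0.5), 95% intervals and Benjamini-Hochberg adjustment, over 51 loci for promoter, viewpoint and boundary quantities (2 loci of the 53, IFNGR2 and TASL, were left out) and otherwise over all windows, or pairs, of the locus with 20 or more counts. A value passed at an adjusted p under 0.05. A window count of 0 would allow up to 3 counts, between 0.00302 and 0.00651% of a total. The test was tried on simulated data first.

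The 19 elements were centered on contact calls that the study made in other libraries of the locus. Named pairs were the 5 largest rises and falls among called pairs with 50 or more counts, plus pairs of the promoter and both edge sites. Named starts were all protein-coding starts within 1 Mb of the enhancer, and compared loci were CCR1, NFKBIZ, CEBPA and those most like TRIB1. Members and lists were chosen with earlier results of these data known. Alternatives were windows of 6 and 20 kb, an exclusion of 20 kb, normalization to distant counts, each fragment pair counted once, and counts divided by 3. Python 3.11.15, NumPy 2.4.6, pandas 2.3.3, SciPy 1.17.1 and matplotlib 3.10.9 were used.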

Additional observations from a re-analysis of the deposited data

How the results depend on the processing

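Of 35 quantities recomputed under the alternatives, 20 kept their call under each that gave a value and 15 did not. No paired analysis was possible because the replicates of each group had been pooled before deposit, and for the same reason no replicate could be left out. Under 20 counts remained, and no value was computed, for the promoter and boundary triple in all 4 comparisons and for the enhancer and promoter triple from the boundary site in 2, with windows of 6 kb and with counts divided by 3; this second triple had under 20 counts at 24 h over 0 h in any case. The causes of the changes below were not tested, beyond fewer counts passing when counts were divided by 3 or windows were smaller.

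On distant counts alone, the promoter in CTCF-depleted over 96 h cells was at -0.14 (log2; adjusted exact p = 0.0583). The boundary site at 96 h over 24 h passed with windows of 6 kb (-0.24) and 20 kb (-0.14), and the promoter and boundary triple at 24 h over 0 h passed at 20 kb (0.83). From the boundary site, the enhancer at 24 h over 0 h turned to 0.19 and passed at 20 kb. At 96 h over 24 h it no longer passed at 6 kb (0.24), 20 kb (0.055), on distant counts (0.20) or with counts divided by 3 (0.30). At 96 h over 0 h it no longer passed at 6 kb (0.25), on distant counts (-0.027), with each fragment pair counted once (0.15) or divided by 3 (0.25). The enhancer and promoter triple at 96 h over 24 h passed at 20 kb (1.36), with an exclusion of 20 kb (1.31) and counted once (1.5).

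Counts of called elements moved as follows. From the enhancer at 96 h over 0 h, lower windows were 2 at 20 kb, 0 with the wider exclusion, 3 on distant counts, 2 counted once and 0 divided by 3, against 1. Higher pairs were 4 at 6 kb, 21 counted once and 2 divided by 3, against 37, and lower pairs 0 at 6 kb, 2 at 20 kb, 2 on distant counts, 0 counted once and 0 divided by 3, against 1. In depleted over 96 h cells, higher windows were 2 on distant counts, 2 counted once and 0 divided by 3, against 1, and higher pairs 1 at 20 kb, against 0. Lower pairs there were 5 at 6 kb, 99 at 20 kb, 22 on distant counts, 16 counted once and 6 divided by 3, against 43. From the boundary site at 96 h over 0 h, lower windows were 1 on distant counts, against 0, and higher pairs 4 at 6 kb, 53 at 20 kb and 5 divided by 3, against 32.

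Single values that turned in sign were the starts of TATDN1 and NDUFB9 (0.59 on distant counts) and MTSS1 (0.56 on distant counts and 0.60 counted once) in depleted over 96 h cells, the enhancer 266.4 kb upstream from the boundary site at 96 h over 0 h (-0.0067 at 6 kb), and the upstream site with the enhancer 12.6 kb downstream, counted once (0.35 at 24 h and 0.81 at 96 h, over 0 h).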
